A study of Homo sapiens with 20 samples.

Results

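Small nucleolar RNA (snoRNA) host transcripts are long noncoding RNAs whose introns carry snoRNAs. Here 10 of them were followed across 20 libraries of ribosomal RNA-depleted total RNA from HCT-116, a long-established line of human colorectal carcinoma cells: SNHG1, SNHG3, SNHG5, SNHG7, SNHG8, SNHG12, SNHG15, SNHG16, GAS5 and ZFAS1. They were chosen with earlier results of these data known and picked out by their GENCODE symbols. Each was found once among the 39918 gene rows of the count table. The libraries form 5 groups of 4. Asynchronous cells received no block and no drug. G2 cells were arrested for 16 h by 2 mM thymidine, an excess that halts DNA synthesis, then released for 7 h and collected at 0 h of drug. The remaining 3 groups went through the same block and release and then 3 h with 20 µM MG132, with 100 nM bortezomib, or with 20 µM MG132 and 50 µg/ml α-amanitin together. MG132 is a peptide aldehyde and bortezomib a peptide boronate, and both inhibit the proteasome. α-Amanitin inhibits RNA polymerase II. A 3 h vehicle group was not analysed here, so a drug group differs from G2 also by 3 h of cell cycle time, whereas the 3 drug groups are matched in time.

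An intron-encoded snoRNA is released when the host transcript is spliced and the intron is trimmed. C/D box snoRNAs guide 2′-O-methylation of ribosomal RNA and H/ACA box snoRNAs guide its pseudouridylation. The spliced exons of several hosts are exported, engage ribosomes on short reading frames and are degraded by nonsense-mediated decay, so that a host can be short-lived while its snoRNAs are stable. Many hosts belong to the 5′ terminal oligopyrimidine (TOP) genes, which begin transcription with a C inside a run of pyrimidines, as ribosomal protein genes do. GAS5, growth arrest specific 5, was named for its accumulation in arrested cells and is a TOP gene. By the annotation, SNHG1, SNHG5, SNHG16 and ZFAS1 hold C/D box snoRNAs (SNORD genes), SNHG3, SNHG7, SNHG8 and SNHG15 hold H/ACA box snoRNAs (SNORA genes), and SNHG12 holds both. GAS5 is known as a host of C/D box snoRNAs, and none is placed inside it in the annotation used here.

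The start sites are shown because the TOP feature was the one sequence property, apart from the snoRNAs, that the hosts were examined for. Each line gives 10 bases before and 20 bases from the annotated first base, on the transcribed strand, from RefSeq on GRCh38.p14. Capitals mark the longest unbroken run of C and T in the 10 bases on either side of the start. SNHG15 is named only.
SNHG1: gagattcgttctcaTTTTTCtactgctcgt
SNHG3: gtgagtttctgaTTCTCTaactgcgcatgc
SNHG5: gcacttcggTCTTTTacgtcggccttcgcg
SNHG7: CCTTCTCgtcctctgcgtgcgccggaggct
SNHG8: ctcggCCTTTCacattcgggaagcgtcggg
SNHG12: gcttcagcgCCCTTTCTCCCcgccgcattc
SNHG16: gggcggtctcgcgTTCTTTTcgaggtcggc
GAS5: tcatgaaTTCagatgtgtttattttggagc
ZFAS1: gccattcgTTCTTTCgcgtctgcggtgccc
These windows lie at chr11:62855866-62855895 (minus strand, SNHG1), chr1:28505933-28505962 (plus, SNHG3), chr6:85678714-85678743 (minus, SNHG5), chr9:136728165-136728194 (minus, SNHG7), chr4:118278752-118278781 (plus, SNHG8), chr1:28581854-28581883 (minus, SNHG12), chr17:76557754-76557783 (plus, SNHG16), chr1:173869026-173869055 (minus, GAS5) and chr20:49278632-49278661 (plus, ZFAS1). A run of at least 6 pyrimidines in the 20 bases around the start was present in 8 of the 9 hosts, and in 22.2% of the 35116 promoters in the same RefSeq table. This measure does not require the run to cover the start. The marked runs of SNHG1, SNHG3 and SNHG16 begin after the first base, and that of SNHG7 ends before it. The first base was C in 6 of the 9 and in 14.7% of all promoters. A run of at least 4 pyrimidines began at the first base in 4 of the 9, SNHG5, SNHG7, SNHG12 and ZFAS1, and in 7.19% of all promoters. All 4 have C as the first base, and 5.45% of all promoters have both features. Within these 20 bases SNHG12 has the longest run, 11 bases. The marked runs of SNHG1, SNHG12 and SNHG16 reach the end of that window and continue beyond it. The RefSeq start of GAS5 is the exception, with a run of 3. In GENCODE 29, 6 of 29 GAS5 transcripts start 1056 bases further downstream, at chr1:173867989 on the minus strand, and the 30 bases from there begin with a run of 6 pyrimidines (capitals):
GAS5 from the GENCODE start: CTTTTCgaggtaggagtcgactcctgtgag
These matches describe letters at annotated starts, and the libraries do not map transcription starts.

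The libraries held 26797395 to 39710457 counts. The 10 hosts together took 0.143 to 0.210% of the counts in MG132 with amanitin, 0.218 to 0.323% in MG132, 0.185 to 0.251% in bortezomib, 0.178 to 0.256% in G2 and 0.186 to 0.256% in asynchronous cells. Markers of colorectal epithelium summed to 3138 to 5865 CPM (counts relative to library size, with TMM scaling) in a library, those of fibroblasts to 3.79 to 16.8 CPM and those of leukocytes to 1.69 to 6.86 CPM. Among the 8 epithelial markers the keratins KRT8, KRT18 and KRT19 were high. Group means were 225 to 306 CPM for EPCAM and 46.4 to 93.0 CPM for CDH1. Of the intestinal genes, CDX2 had group means of 8.10 to 11.3 CPM, whereas VIL1 and CDX1 were at or near 0. Asynchronous replicate 1 and G2 replicate 1 stood apart, with 67.6% and 68.3% of counts in protein-coding genes against at least 75.5% in the other 18 libraries. They also held 1.10% and 1.19% of counts in snoRNA genes, against 0.314 to 0.955% elsewhere. A letter in each sample code has no stated meaning. These 2 libraries share the letter L with MG132 replicate 2 and replicate 2 of MG132 with amanitin. In asynchronous cells and in G2 the L library was the highest of its group for 9 of the 10 hosts, in MG132 for 8, and in MG132 with amanitin for 1. HSPA1B, a heat shock gene used as a reference for the drugs, was at 356 ± 63.6 CPM (mean ± SD, n = 4, as everywhere below) in G2, 4396 ± 949 CPM in MG132, 2252 ± 472 CPM in bortezomib and 504 ± 136 CPM in MG132 with amanitin. Its copy HSPA1A is nearly identical, so reads may be split between them.

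To compare levels between hosts, CPM was divided by the summed length of the annotated exons. In G2 the order was SNHG3 at 118 ± 78.2, SNHG16 at 99.4 ± 20.9, SNHG8 at 87.1 ± 30.1, GAS5 at 78.8 ± 34.7, SNHG1 at 67.1 ± 15.6, ZFAS1 at 48.8 ± 16.2, SNHG5 at 39.1 ± 6.53, SNHG12 at 25.6 ± 10.7, SNHG7 at 23.8 ± 7.13 and SNHG15 at 16.6 ± 4.34 CPM per kb. In this order SNHG1 stood above ZFAS1, SNHG5 above SNHG12 and SNHG7 above SNHG15 by more than either SD, and the other 6 neighbouring pairs differed by less than the larger of their SDs. The order rests on all annotated exons, including rare isoforms and retained introns. SNHG3 shares its strand and locus with RCC1, a protein-coding gene, so its level is uncertain. The strand setting of the counting is not given in the sources used here, and SNHG7, SNHG12, SNHG16, GAS5 and ZFAS1 overlap genes on the other strand, so reads from those genes cannot be told apart from theirs.

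The question of the amanitin group is how far the levels in MG132-treated cells depend on ongoing transcription. With α-amanitin added to MG132, 6 of the 10 hosts fell: SNHG1, SNHG5, SNHG12, SNHG15, GAS5 and ZFAS1 (edgeR quasi-likelihood test, adjusted p under 0.05). Of all 18959 genes tested 1.51% were called lower. In 8 hosts, these 6 with SNHG7 and SNHG8, every library with amanitin was below every library with MG132 alone, against 4.01% of all genes. The fitted difference was negative for all 10, with a median of -1.23 on the log2 scale beside 0.02 over all genes tested. Since the hosts were chosen with earlier results of these data known, the values over all genes beside them are a description. SNHG16 and SNHG3 were the hosts whose libraries overlapped.

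Among the C/D box hosts, SNHG1, a host of 7 annotated snoRNAs, was at 311, 741, 443 and 392 CPM in the 4 MG132 libraries and at 119.6, 156, 163 and 265 CPM in those with amanitin. All 4 amanitin libraries lay below all 4 MG132 libraries, and the log2 fold change was -1.42 ± 0.30 (SE, adjusted p = 0.0114, edgeR). SNHG5, which holds SNORD50B, was at 119, 223, 143 and 109 CPM with MG132 and 47.7, 61.3, 59.0 and 73.3 CPM with amanitin. Its libraries again did not overlap. SNHG5 fell by 1.30 on the log2 scale (SE 0.23, adjusted p = 0.00285, edgeR), the smallest p among the hosts. GAS5 was at 323, 587, 393 and 350.4 CPM with MG132 and 128, 163, 165 and 207 CPM with amanitin, a log2 fold change of -1.32 ± 0.29 (adjusted p = 0.0158, edgeR). Every MG132 library of GAS5 was thus above the highest amanitin library. ZFAS1, the antisense neighbour of ZNFX1 and host of the SNORD12 family, was at 152, 319, 189 and 162 CPM with MG132 and 76.4, 91.2, 83.6 and 118 CPM with amanitin. The ZFAS1 libraries did not overlap either, and the log2 fold change was -1.15 ± 0.28 (adjusted p = 0.0293, edgeR). SNHG16, which holds the SNORD1 family, was at 578, 452, 600.0 and 764 CPM with MG132 and 504, 537, 549 and 596 CPM with amanitin. These 2 sets of SNHG16 libraries overlapped, and the difference of -0.13 ± 0.20 was not called (adjusted p = 0.859, edgeR).

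Among the H/ACA box hosts, SNHG15, which holds SNORA9, was at 72.4, 150.1, 86.4 and 125 CPM with MG132 and 32.2, 42.3, 39.3 and 55.8 CPM with amanitin. No libraries overlapped, and the log2 fold change was -1.35 ± 0.28 (adjusted p = 0.0089, edgeR). SNHG12, which holds SNORD99 and 3 kinds of H/ACA box snoRNA, was at 104, 196, 120.0 and 170.0 CPM with MG132 and 39.4, 56.3, 56.7 and 79.5 CPM with amanitin, a log2 fold change of -1.35 ± 0.31 (adjusted p = 0.0242, edgeR). Here too all amanitin libraries were the lower ones. SNHG7, host of the SNORA17 pair, was at 111, 150.3, 130.5 and 175 CPM with MG132 and 63.4, 80.7, 80.1 and 98.2 CPM with amanitin. SNHG8, host of SNORA24, was at 72.8, 126, 78.8 and 109.9 CPM with MG132 and 41.4, 43.7, 49.1 and 63.8 CPM with amanitin. Both hosts were lower in every amanitin library, but their log2 differences of -0.81 ± 0.26 and -0.97 ± 0.29 were not called (adjusted p = 0.123 and 0.0946, edgeR). SNHG7 and SNHG8 were called by DESeq2, which gave 8 hosts, and limma-voom gave the 6 that edgeR called. SNHG3, host of SNORA73A and SNORA73B, was at 368, 808, 365 and 586 CPM with MG132 and 234, 422, 339 and 354 CPM with amanitin. The SNHG3 libraries overlapped, and the difference of -0.66 ± 0.41 was not called (adjusted p = 0.572, edgeR).

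MG132 replicate 2 was the highest of its 4 libraries in 8 hosts. Without it 2 hosts were called, SNHG5 and SNHG15, with a median difference of -0.95. Without replicate 1 of MG132 with amanitin 1 was called (SNHG5), without its replicate 2 SNHG5 and SNHG15, and without its replicate 3 SNHG1, SNHG5 and SNHG15. A fit of only these 2 groups called 1 host, GAS5, and leaving out the 4 libraries with the steepest dependence on GC content, which include MG132 replicates 2 and 4, called 1, SNHG5, with a median of -0.89. Without the 2 libraries low in protein-coding counts, or with GC content and length as an offset, 8 were called, the 6 with SNHG7 and SNHG8. In all these settings the 6 called hosts kept their negative sign. MG132 with amanitin had 1.25 to 1.83% of counts in mitochondrial mRNAs, which RNA polymerase II does not make, against 1.13 to 1.39% with MG132. Scaled to those mRNAs, 5 hosts were called and the median was -1.34, and with total library size 6 were called and the median was -1.03. All values are relative to the rest of the RNA in a library, so a change per cell cannot be told apart from a change in the rest.

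**Figure D1:**
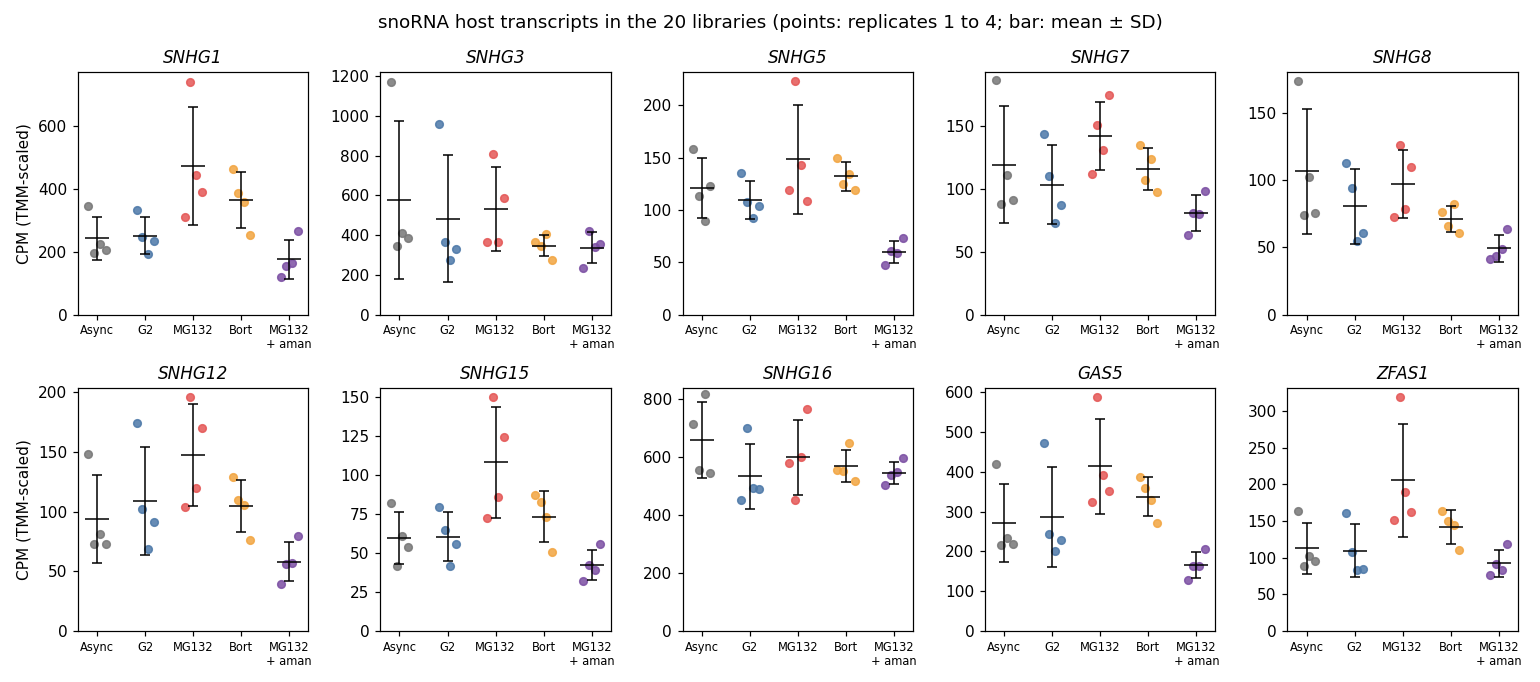
Level of each host in the 20 libraries, in CPM scaled by TMM (vertical axes, linear from 0), by group (horizontal axis). Points are replicates 1 to 4 from left to right, and bars are the mean ± SD of 4 libraries. In 8 hosts all points of MG132 with amanitin lie below all points of MG132, while SNHG16 and SNHG3 overlap.

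Against G2 cells at 0 h, which differ also by 3 h of cell cycle time, 1 host was called lower in MG132 with amanitin, SNHG5. Of all genes 2.32% were called lower. SNHG5 was at 135, 108, 92.2 and 104 CPM in G2, above all 4 amanitin libraries given above, and the log2 fold change was -0.86 ± 0.23 (adjusted p = 0.0426, edgeR). For 4 hosts the unadjusted p was under 0.05, as for 14.4% of all genes: SNHG5, SNHG8, SNHG12 and GAS5. SNHG12 was at 174, 102, 68.4 and 91.5 CPM in G2, of which replicate 3 lay within the range with amanitin, and its difference of -0.91 ± 0.31 was not called (adjusted p = 0.132, edgeR). GAS5 was at 473, 243, 200.2 and 229 CPM in G2, and replicate 3 again lay below the highest amanitin library. The GAS5 difference was -0.79 ± 0.29 (adjusted p = 0.163, edgeR). SNHG8 was at 113, 93.8, 54.4 and 60.3 CPM in G2, with a difference of -0.70 ± 0.29 (adjusted p = 0.24, edgeR). The other 6 had differences between -0.52 (SNHG1) and 0.04 (SNHG16), with -0.51 for SNHG3, -0.51 for SNHG15, -0.36 for SNHG7 and -0.24 for ZFAS1. The median over the 10 was -0.52. Without G2 replicate 1 it was -0.36 and no host was called, and SNHG5 lost its call also without G2 replicate 2 or 4, or without replicate 1, 2 or 3 of MG132 with amanitin. Scaled to mitochondrial mRNAs, SNHG5, SNHG12 and GAS5 were called and the median was -0.95, and with a block for the code letter 0 were called and it was -0.27.

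With MG132 alone against G2, all 10 fitted differences were positive and 0 were called by edgeR, while 2.08% of all genes were called in either direction. The median difference was 0.45, beside -0.03 over all genes. At an unadjusted p under 0.05 there were 3 hosts, against 11.8% of all genes: SNHG1, SNHG15 and ZFAS1. SNHG1 was at 333, 246, 194 and 234 CPM in G2 and, as above, between 311 and 741 CPM with MG132. Only MG132 replicate 1 fell within the G2 range, and the log2 difference was 0.91 ± 0.30 (adjusted p = 0.142, edgeR). ZFAS1 was at 161, 107, 83.6 and 84.98 CPM in G2, a difference of 0.91 ± 0.27 (adjusted p = 0.103, edgeR). Replicate 1 was the G2 library of ZFAS1 that overlapped with MG132. SNHG15 was at 79.6, 65.0, 41.9 and 55.8 CPM in G2, with a difference of 0.84 ± 0.27 (adjusted p = 0.139, edgeR). The other differences were 0.53 ± 0.28 for GAS5, 0.46 ± 0.25 for SNHG7, 0.44 ± 0.23 for SNHG5, 0.44 ± 0.31 for SNHG12, 0.27 ± 0.28 for SNHG8, 0.17 ± 0.20 for SNHG16 and 0.14 ± 0.41 for SNHG3. Without G2 replicate 1, the library low in protein-coding counts, ZFAS1 was called, 7 hosts had an unadjusted p under 0.05 and the median was 0.74. DESeq2 called ZFAS1 as well, limma-voom called 0, and an offset for GC content and length gave calls for SNHG15 and ZFAS1. Scaled to mitochondrial mRNAs, the median was 0.18 and SNHG3 and SNHG16 were below 0. Without the 4 GC-skewed libraries it was 0.23 and SNHG3, SNHG8 and SNHG12 were below 0. In both settings 0 hosts had an unadjusted p under 0.05.

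Bortezomib against G2 gave 0 called hosts by edgeR and 0 at an unadjusted p under 0.05, with 1.15% of all genes called and 14.5% at an unadjusted p under 0.05. DESeq2 and limma-voom also called 0. Differences were positive in 7 hosts, with a median of 0.20. This median depended on the setting: it was -0.026 with 5 of 10 positive when scaled to mitochondrial mRNAs, 0.52 with 10 positive and 3 at an unadjusted p under 0.05 with a block for the code letter, 0.078 without G2 replicate 3 and 0.12 without G2 replicate 4. SNHG1 was at 465, 387, 358 and 253 CPM with bortezomib, of which replicate 4 lay within the G2 range, a difference of 0.54 ± 0.29 (adjusted p = 0.415, edgeR). ZFAS1 was at 164, 150.5, 144 and 110.005 CPM with bortezomib, a difference of 0.38 ± 0.27 (adjusted p = 0.522, edgeR). SNHG3 was at 367, 345, 404 and 276 CPM with bortezomib and at 958, 367, 274 and 329 CPM in G2. Its difference of -0.47 ± 0.41 (adjusted p = 0.593, edgeR) rests on G2 replicate 1: without that library it was 0.11, the median over the hosts was 0.37 and 3 hosts had an unadjusted p under 0.05. MG132 and bortezomib are compared here with the same 4 G2 libraries.

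The direct comparison of the proteasome inhibitors, at the same 3 h, called 0 hosts by edgeR, 0 at an unadjusted p under 0.05 and 0 by DESeq2 or limma-voom, with 0.0369% of all genes called (7 genes). All 10 hosts were fitted as higher with MG132, with a median of 0.41. The largest differences were 0.61 ± 0.41 for SNHG3, 0.56 ± 0.27 for SNHG15 and 0.53 ± 0.27 for ZFAS1 (adjusted p = 0.983 for each, edgeR). The 95% intervals, from the SE and 15 residual degrees of freedom, ran from -0.27 to 1.49 for SNHG3, -0.02 to 1.14 for SNHG15 and -0.05 to 1.11 for ZFAS1. They include 0 and also differences of over 1 on the log2 scale, so the inhibitors are not shown to act alike on these hosts. SNHG15 was at 87.3, 82.6, 73.2 and 50.6 CPM with bortezomib against 72.4 to 150.1 CPM with MG132, and the groups overlapped. The doses differ in kind, and bortezomib replicates 2 and 4 are the only libraries with their code letters. With a block for the letter the median was 0.08, with 7 of 10 differences positive. Without MG132 replicate 2 it was 0.25 and without the 4 GC-skewed libraries 0.081, with 9 of 10 positive in each.

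Synchronisation itself, G2 against asynchronous cells, gave 0 called hosts by edgeR, 0 at an unadjusted p under 0.05 and 0 by DESeq2 or limma-voom, while 2.09% of all genes were called. Differences were positive in 4 and negative in 6, with a median of -0.09. Scaled to mitochondrial mRNAs the median was 0.11 with 7 positive, and with total library size 0.077 with 6 positive. SNHG8 was at 173, 74.3, 102 and 75.8 CPM in asynchronous cells, a difference of -0.41 ± 0.28, the lowest of the 10. SNHG12 was at 149, 72.9, 81.2 and 73.4 CPM in asynchronous cells, a difference of 0.21 ± 0.31, the highest. Both groups contain 1 library that stands apart, and each of these 2 libraries was the highest of its group for both hosts. Without asynchronous replicate 1 the median was 0.21 and without G2 replicate 1 it was -0.27, with 0 calls either way.

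**Figure D2:**
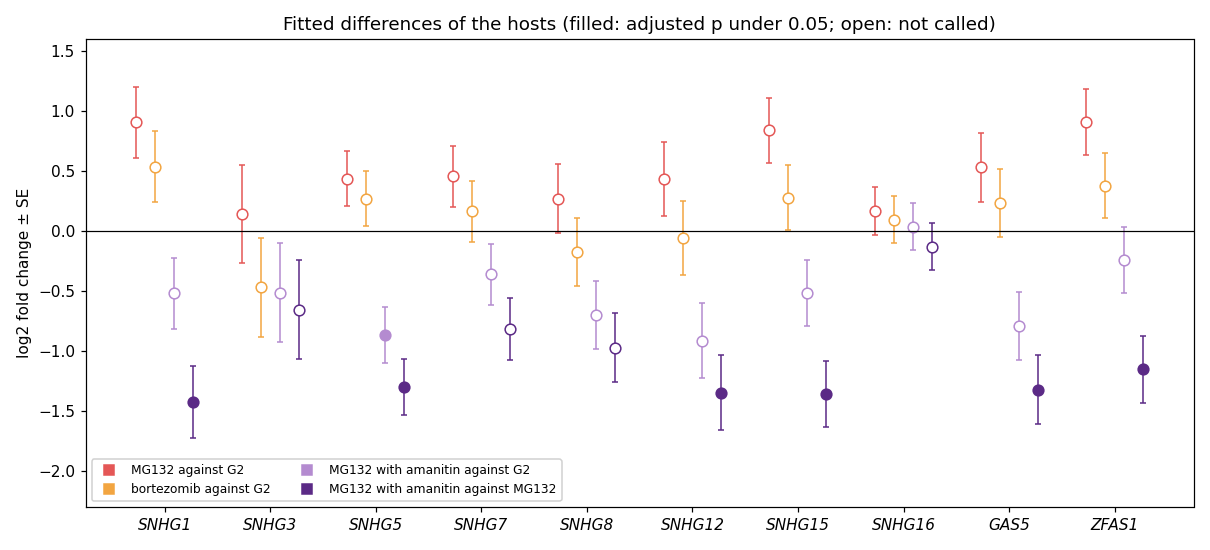
Fitted log2 fold changes ± SE of the 10 hosts (vertical axis) in 4 comparisons (colours), from the edgeR fit of all 20 libraries with 4 per group. Filled circles have an adjusted p under 0.05. The 6 filled dark purple circles are MG132 with amanitin against MG132, the 1 filled light purple circle is SNHG5 against G2, and no red or orange circle is filled.

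The table also holds rows for 25 snoRNA genes that lie inside 9 of the hosts on the same strand, of which 24 were tested. Short snoRNAs are poorly captured by libraries of this kind, and all but 5 of these genes overlap an annotated exon of their host, so the rows may hold fragments of unspliced or retained-intron host RNA as well as mature snoRNA. With amanitin added to MG132 all 24 fitted differences were negative, with a median of -1.11. Of these rows 7 were called lower by edgeR, 15 by DESeq2 and 7 by limma-voom. Of all 18959 genes tested, edgeR called 286 lower, DESeq2 493 and limma-voom 272. Without MG132 replicate 2, 6 rows were called, against 234 of 19378 genes. Without the 4 GC-skewed libraries there were 3, against 368 of 20000 genes. Without the 2 libraries low in protein-coding counts there were 15, against 351 of 19297 genes. Of the 7 SNHG1 rows 6 were called lower by edgeR. All 7 overlap an annotated exon of SNHG1, so these calls may not be separate from that of SNHG1 itself. SNORD26 was at 7.51, 17.5, 8.91 and 9.36 CPM with MG132 and 2.03, 2.82, 2.90 and 3.07 CPM with amanitin, a log2 fold change of -1.998 ± 0.26 (adjusted p = 1.16e-04, edgeR). SNORD25 was at 13.4, 31.2, 14.1 and 22.0 CPM with MG132 and 5.46, 7.86, 7.20 and 10.3 CPM with amanitin, a log2 fold change of -1.39 ± 0.32 (adjusted p = 0.0218, edgeR). Neither row overlapped between the groups. SNORD27 and SNORD28, named after their values were seen, had the lowest differences, at -2.70 ± 0.33 and -2.54 ± 0.36 (adjusted p = 4.52e-05 and 2.56e-04, edgeR). In these rows the difference was larger than that of SNHG1 itself, at -1.42. The remaining called row was SNORD1C of SNHG16, also named after its values were seen, at 2.60, 2.96, 2.20 and 3.92 CPM with MG132 and 1.29, 1.57, 1.24 and 1.24 CPM with amanitin. It fell by 1.13 on the log2 scale (adjusted p = 0.0182, edgeR), while its host SNHG16 was not called.

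The most abundant snoRNA rows, those of SNHG3, were not called. SNORA73B of SNHG3 was at 357, 821, 311 and 541.4 CPM with MG132 and 202, 455, 349.9 and 328 CPM with amanitin, and SNORA73A at 251, 632, 258 and 408 and 157, 315, 254 and 250.2 CPM. Both rows overlapped between the groups, with differences of -0.60 ± 0.47 and -0.67 ± 0.49 that were not called (adjusted p = 0.672 and 0.642, edgeR). Against G2, MG132 with amanitin gave 24 of 24 negative differences, 8 called lower and a median of -0.99, and DESeq2 called 13. Of all genes, 2.32% were called lower there by edgeR, and 634 of 18959 by DESeq2. MG132 alone against G2 gave 0 called by edgeR, DESeq2 or limma-voom and 0 at an unadjusted p under 0.05, with a median of 0.06 that became 0.36 without the libraries low in protein-coding counts, -0.41 without the GC-skewed ones and -0.20 without MG132 replicate 2. Bortezomib against G2 likewise gave 0 by each tool, with 23 of 24 differences negative and a median of -0.26 that became 0.058 without the libraries low in protein-coding counts. MG132 against bortezomib gave 0 by each tool, with a median of 0.32 that became 0.093 without MG132 replicate 2 and -0.057 without the GC-skewed libraries. G2 against asynchronous cells gave 0 called and 1 at an unadjusted p under 0.05, with a median of 0.28, or 0.18 without the libraries low in protein-coding counts. The share of snoRNA genes in all counts was 0.380 to 0.955% with MG132, 0.314 to 0.704% with amanitin added, 0.351 to 0.528% with bortezomib and 0.355 to 1.19% in G2.

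**Figure D3:**
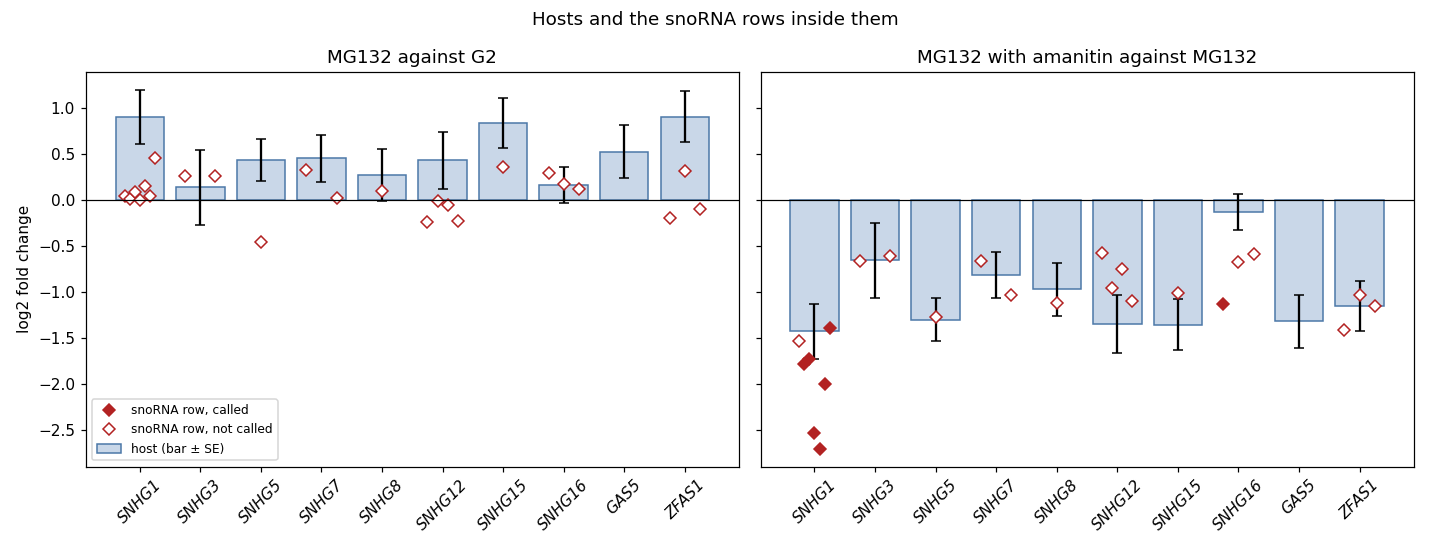
Log2 fold changes of the hosts (bars ± SE) and of the snoRNA rows inside them (diamonds, filled where called at an adjusted p under 0.05) for MG132 against G2 (left) and MG132 with amanitin against MG132 (right), 4 libraries a group. On the left no row is filled and most diamonds lie near 0, below the bars of SNHG1, SNHG15 and ZFAS1. On the right all diamonds are below 0, and 6 of the 7 filled ones belong to SNHG1.

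Because host and snoRNA rows share a library, their ratio does not depend on the scaling. The log2 ratio of host counts to the summed counts of its snoRNA rows was examined for the 9 hosts that have such rows, a measure chosen after the values above were seen. For SNHG1 it was 1.98, 2.13, 2.31 and 2.28 in the 4 G2 libraries, 2.88, 2.77, 3.19 and 2.77 with MG132, 2.92, 2.89, 2.81 and 2.67 with bortezomib and 3.12, 2.83, 3.06 and 3.64 with amanitin added to MG132. All 12 drug-treated libraries were above all 4 G2 libraries. In asynchronous cells the SNHG1 ratio was 2.29, 2.33, 2.22 and 2.35. For SNHG15 it was 4.85, 4.93, 4.89 and 4.77 in G2, 5.44, 5.28, 5.48 and 5.26 with MG132 and 5.36, 5.57, 5.28 and 5.42 with bortezomib. Again the inhibitor groups lay wholly above G2, while with amanitin the SNHG15 ratio, at 5.20, 4.73, 4.68 and 5.42, overlapped G2. For ZFAS1 it was 1.91, 2.23, 2.69 and 2.91 in G2, 3.05, 3.22, 3.57 and 2.93 with MG132, 3.12, 3.12, 3.02 and 2.76 with bortezomib and 3.21, 3.00, 3.22 and 3.58 with amanitin. The G2 libraries of ZFAS1 were spread widely, and all lay below both groups that received MG132, while bortezomib replicate 4 lay within their range. In asynchronous cells the ZFAS1 ratio was 2.85, 3.03, 2.83 and 3.06, which overlapped MG132 and G2. Some snoRNA counts behind these ratios were low, at 32 to 98 in a library for SNHG15 and 61 to 383 for SNHG5.

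The ratio was higher with MG132 than in G2, without overlap, in SNHG1 by 0.73, SNHG5 by 0.74, SNHG12 by 0.51, SNHG15 by 0.50 and ZFAS1 by 0.76 on the log2 scale. In SNHG3, SNHG7, SNHG8 and SNHG16 the groups overlapped, with differences of -0.15, 0.15, 0.18 and -0.09. In asynchronous cells the SNHG5 ratio was 4.44, 4.49, 4.71 and 4.52, which overlapped MG132. The asynchronous SNHG12 ratio, at 1.62, 1.79, 1.85 and 1.64, lay below MG132. That of SNHG15 was 4.85, 4.68, 4.79 and 5.260, and its highest value lay just below the lowest with MG132, 5.265. Such ratios were not examined for other genes, so no share over all genes stands beside these numbers of hosts. With bortezomib the ratio was higher than in G2 without overlap in SNHG1 by 0.65, SNHG5 by 0.70, SNHG7 by 0.40 and SNHG15 by 0.54. Both comparisons use the same G2 libraries. Between MG132 with amanitin and MG132 alone the ratio overlapped in all 9 hosts, with differences from -0.49 in SNHG12 to 0.74 in SNHG16. Groups of 4 that do not overlap give p = 0.0286 in a two-sided exact permutation test, the smallest it can reach, and after adjustment over the 54 ratios compared this is 0.119, so no difference in ratio passed. G2 replicate 1, with its high snoRNA share, had the lowest G2 ratio in SNHG1, SNHG3, SNHG5, SNHG7, SNHG12, SNHG16 and ZFAS1. Its part in these differences was not tested beyond leaving it out, after which SNHG1 was still higher with MG132, by 0.66, SNHG5 by 0.49 and ZFAS1 by 0.58. With bortezomib the values without it were 0.59 for SNHG1, 0.44 for SNHG5, 0.27 for SNHG7 and 0.54 for SNHG15.

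**Figure D4:**
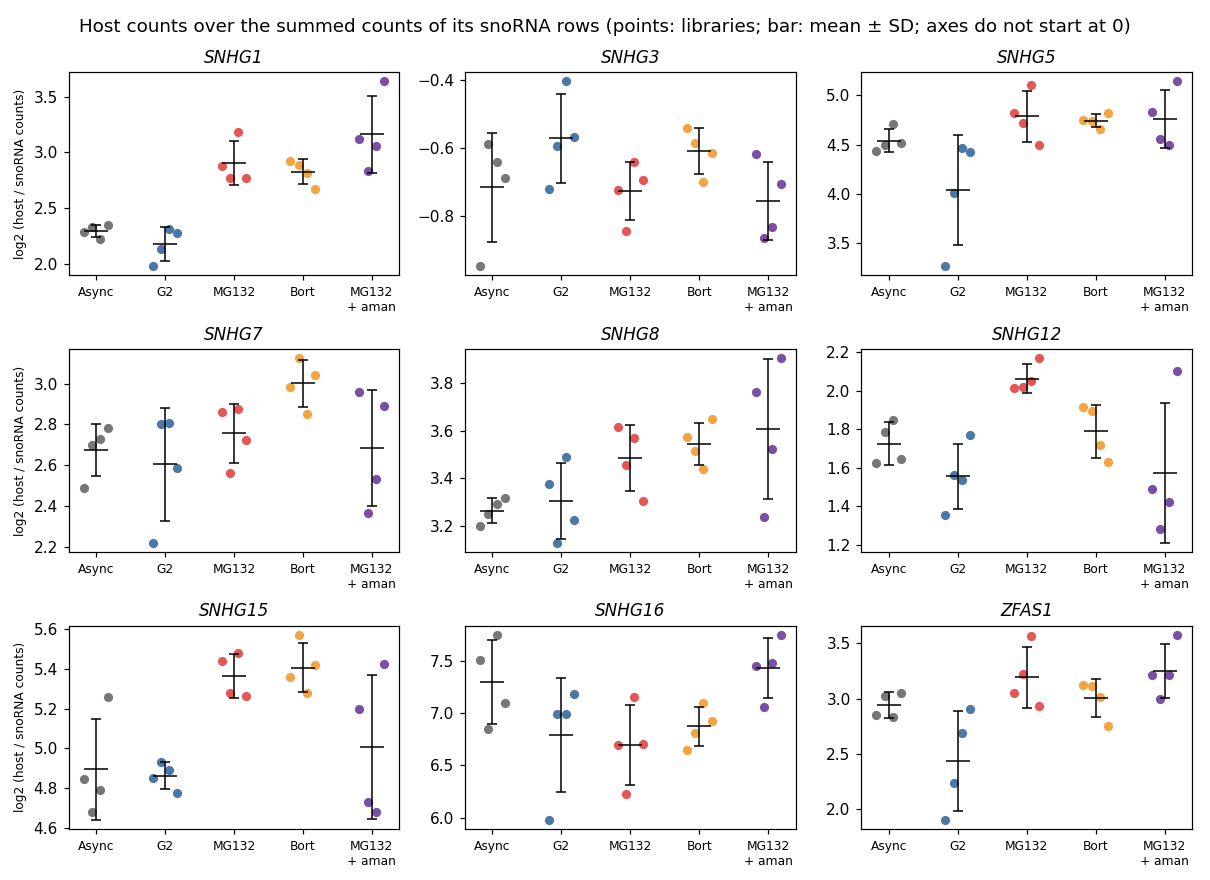
Log2 ratio of host counts to the summed counts of the snoRNA rows inside it (vertical axes, which do not start at 0) by group (horizontal axis), for the 9 hosts with such rows. Points are libraries and bars the mean ± SD of 4. In SNHG1 all 12 drug-treated libraries lie above all 4 G2 libraries, and in SNHG12 all 4 MG132 libraries do.

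Genes of the same pathways were read from the same fit. Of 17 other noncoding snoRNA hosts tested, 0 were called with MG132 against G2 by edgeR or limma-voom and 2 by DESeq2 (SNHG17 and EPB41L4A-AS1), with 4 at an unadjusted p under 0.05. SNHG17 was at 67.8, 69.8, 59.7 and 62.0 CPM in G2 and 99.4, 79.4, 94.2 and 146 CPM with MG132, without overlap, and its difference of 0.69 ± 0.18 just missed the call (adjusted p = 0.0536, edgeR). Without MG132 replicate 2 it was called. SNHG26 lay lower with MG132, by -0.49 ± 0.16 (adjusted p = 0.145, edgeR). With amanitin added to MG132, edgeR called 1 of the 17 lower, EPB41L4A-AS1. It went from 41.0, 80.0, 50.5 and 57.8 CPM to 16.3, 16.3, 18.4 and 31.4 CPM, a log2 fold change of -1.48 ± 0.24 (adjusted p = 0.00139, edgeR). DESeq2 called 3 lower (SNHG4, SNHG17 and EPB41L4A-AS1), and without MG132 replicate 2 SNHG17 and EPB41L4A-AS1 were called. At an unadjusted p under 0.05 (edgeR) there were 7 of the 17, against 12.5% of all genes, and 1 of the 17 differences was positive. SNHG17, SNHG20 and SNHG4 were also lower without overlap between the groups, as were 4.01% of all genes. C6orf48, now named SNHG32, and SNHG25 also had an unadjusted p under 0.05 (edgeR), but their libraries overlapped. SNHG4 and SNHG25 are named here beyond the 4 genes with the smallest p. The median over the 17 was -0.47 there, against -1.23 for the 10 hosts. Both lists were chosen with earlier results of these data known, so the medians are set side by side only as a description. Against G2, MG132 with amanitin called 1 lower, SNHG26, by -0.81 ± 0.16 (adjusted p = 0.00653, edgeR). In that comparison 7 of the 17 had an unadjusted p under 0.05 (edgeR), against 14.4% of all genes. In the other 3 comparisons 0 of the 17 were called by edgeR, DESeq2 or limma-voom, with 1 to 3 at an unadjusted p under 0.05.

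Of 38 protein-coding snoRNA hosts, most of them ribosomal protein and translation factor genes, 1 rose with MG132 against G2: HSPA8, the constitutive HSP70 chaperone. It was at 5082, 5405, 3686 and 3999 CPM in G2 and 6769, 14728, 8123 and 8690.5 CPM with MG132, a log2 fold change of 1.08 ± 0.25 (adjusted p = 0.0267, edgeR), with 14728 CPM in MG132 replicate 2 far above the rest. DESeq2 and limma-voom also called HSPA8 alone. Without MG132 replicate 2 no gene of the 38 was called in this comparison. The same held without the 4 GC-skewed libraries and without the 2 libraries low in protein-coding counts. With amanitin added to MG132 2 of the 38 fell, HSPA8 by -1.25 ± 0.25 and EIF4A2, a translation initiation helicase, by -1.37 ± 0.35 (adjusted p = 0.00853 and 0.0415, edgeR). EIF4A2 was at 484, 1249, 585 and 295 CPM with MG132 and 189.5, 254, 289 and 279 CPM with amanitin, again with MG132 replicate 2 far above the rest. Without that library, and by limma-voom, HSPA8 alone of the 38 was called. Without the 4 GC-skewed libraries EIF4A2 and TAF1D were called and HSPA8 was not, and DESeq2 called 4 (these 3 and NOP56). The median over the 38 was 0.21 with MG132 against G2, but 0.059 without MG132 replicate 2, -0.056 without the GC-skewed libraries and 0.39 without the libraries low in protein-coding counts. With amanitin against MG132 it was -0.44, and -0.15 without the GC-skewed libraries. In the other 4 comparisons 0 of the 38 were called by edgeR, DESeq2 or limma-voom, with 0 to 3 at an unadjusted p under 0.05.

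None of 14 nonsense-mediated decay factors was called in any of the 6 comparisons by edgeR or limma-voom, with at most 2 at an unadjusted p under 0.05, and DESeq2 called SMG8 in both comparisons of the amanitin group. Their median was 0.19 with MG132 against G2 and -0.07 with amanitin against MG132. UPF1, the central helicase of the pathway, was at 89.7, 134, 118 and 119.8 CPM in G2 and 170.2, 95.6, 165 and 258 CPM with MG132, a difference of 0.58 ± 0.25 (adjusted p = 0.347, edgeR). SMG8, a subunit of the kinase complex that phosphorylates UPF1, was at 63.8, 68.1, 68.5 and 73.9 CPM with MG132 and 42.8, 43.4, 50.7 and 49.5 CPM with amanitin, without overlap, and was not called (-0.56 ± 0.17, adjusted p = 0.117, edgeR). Of 16 genes for snoRNP proteins and snoRNA assembly, 0 were called in any comparison by edgeR or limma-voom and 1 by DESeq2 (NOP56, lower with amanitin against MG132), with at most 3 at an unadjusted p under 0.05. NOP58, a core protein of C/D box snoRNPs, was at 145, 68.2, 149 and 158 CPM in G2 and 246, 565, 301 and 69.8 CPM with MG132. MG132 replicate 4 of NOP58 lay near the lowest of the 8 libraries and the other 3 MG132 libraries were the highest, and the difference was 1.19 ± 0.44 (adjusted p = 0.22, edgeR). Without the 4 GC-skewed libraries NOP58 was called higher with MG132 than in G2 and lower with amanitin than with MG132.

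The hosts varied together over the 20 libraries, SNHG16 excepted. Between pairs of hosts Pearson's r of log2 CPM ranged from -0.01 to 0.95 with a median of 0.80. The points share library depth, scaling and the groups themselves, so r is a description. Ranked by r with the mean standardised profile of the hosts among 10083 genes, SNHG7 (0.970) and SNHG12 (0.967) came first, a place that their own part in that mean helps to give, SNHG3 was at rank 131 and SNHG16 at rank 2827 with r = 0.28. The 5 genes outside the list with the most similar profile were SNORD25 (r = 0.948), which lies inside SNHG1, MRPL18 (0.944), a mitochondrial ribosomal protein gene, RF00003 (0.928), a row of the U1 spliceosomal RNA family, C19orf48 (0.926) and RF02216 (0.917), a row that lies inside ZFAS1.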

How the data were processed

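Per the labels' protocols, stranded libraries of rRNA-depleted total RNA from 20 HCT-116 samples were measured. The authors deposited raw counts, whole numbers per row, for 39918 genes and 1174 repeat subfamilies. All 20 columns matched a sample and 0 were left out. FastQC, cutadapt 1.18, STAR and the build hg38 are listed in the submitters' processing notes. Not given in the sources used here are the counting tool, annotation release and strand setting. Positions of 38661 genes came from GENCODE 29 on hg38.

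Samples were grouped by label. The labels do not state that replicates are separate cultures, so p-values measure the spread between these samples. The counts of replicate pairs differed by a chi-square, divided by its degrees of freedom, of 11.1 to 509.985, and no pair was treated as a duplicate. Genes and repeats were fitted together with edgeR 4.0.16 in R 4.3.3 (filterByExpr, TMM, robust quasi-likelihood test), 1 mean per group over all 20 libraries, 15 residual degrees of freedom and a biological coefficient of variation of 33.3%. P-values were adjusted by Benjamini-Hochberg over 18959 genes, and a call is an adjusted p under 0.05. Where no tool is named, adjusted p-values of single genes come from edgeR. CPM uses TMM-adjusted library sizes. The fit was tested on simulated data.

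The members and gene lists were chosen with earlier results of these data known. All members are named. Of each list up to 4 genes with the smallest p in a comparison, the 6 snoRNA rows with the highest counts and the 5 genes most like the members were eligible, except where stated. Alternatives were RLE, total library size and scaling to 13 mitochondrial mRNAs, no filter, a strict filter (4 or more samples at a CPM of 1 or more), limma-voom (limma 3.58.1), DESeq2 1.42.0, a fit of only the groups compared, omission of 4 GC-skewed libraries, an offset for GC content and length (loess span 0.5), blocks for replicate number and code letter, and leaving out each library. The omission of 2 libraries low in protein-coding counts, the ratio of host to snoRNA counts and the range of that ratio were added after seeing the data.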

Additional observations from a re-analysis of the deposited data

Results flagged for a closer look

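Among 50 sets of 4 libraries (10 hosts in 5 groups), 6 had a highest library whose gap to the nearest other divided by the range of the group exceeded Dixon's 95% critical value for 4 samples. Chance alone flags about 1 in 20 such sets if their values are normal. The 10 hosts share the same libraries and vary together, so the 50 sets are not independent. The number of flags is therefore not judged against that rate. In asynchronous replicate 1, SNHG3 was at 1170.4 CPM against 409 CPM in the next library, SNHG12 at 149 CPM against 81.2 CPM, and GAS5 at 419 CPM against 233 CPM. In G2 replicate 1, SNHG3 was at 958 CPM against 367 CPM in the next library and GAS5 at 473 CPM against 243 CPM. These are the 2 libraries with the lowest shares of counts in protein-coding genes, 67.6% and 68.3%. In G2 replicate 2, SNHG16 was at 699 CPM against 492 CPM in the next library. G2 replicate 2 is one of the GC-skewed libraries, with counts rising by 0.36 on the log2 scale for each 10 points of GC content. The part of these library properties in the flagged values was not tested.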

How the results depend on the processing

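With MG132 against G2 (0 hosts called), DESeq2 called 1, the offset for GC content and length 2, the fit without the libraries low in protein-coding counts 1, and leaving out each library 0 to 1. With MG132 with amanitin against G2 (1 called), mitochondrial mRNA scaling called 3, no filter 0, the replicate block 0, the code letter block 0, the fit without the libraries low in protein-coding counts 0, and leaving out each library 0 to 1. With amanitin against MG132 (6 called), a fit of only the groups compared called 1, the omission of the GC-skewed libraries 1, leaving out each library 1 to 6, and DESeq2, the offset for GC content and length and the fit without the libraries low in protein-coding counts 8 each. In the other 3 comparisons 0 were called in every alternative. The causes were not tested.

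Replicate numbers were not taken to pair samples, since the labels do not say so and in no comparison did all 4 same-numbered pairs correlate over 0.1 (range -0.79 to 0.83). In amanitin against MG132 all 4 were positive, 0.072 to 0.70, and 4 of 8 samples correlated best with their own number. With the replicate block 5 hosts were called there.

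In that comparison all 6 called hosts kept their direction in 21 of 21 alternatives. SNHG5 was still called in 20, SNHG15 in 18, SNHG1 in 16, GAS5 in 16, SNHG12 in 15 and ZFAS1 in 12. SNHG5 against G2 was still called in 11 of 21.

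Over 210 values a comparison, the sign changed in 29 for G2 against asynchronous cells, 15 for bortezomib against G2, 10 for MG132 with amanitin against G2, 8 for MG132 against G2, 6 for MG132 against bortezomib and 2 for amanitin against MG132, and 0 of these were called in either setting. Those of the differences given above follow. In MG132 against G2, mitochondrial scaling gave -0.17 for SNHG3 and -0.061 for SNHG16, the omission of the GC-skewed libraries gave -0.54 for SNHG3, -0.030 for SNHG8 and -0.021 for SNHG12, and leaving out each library gave -0.13 to 0.72 for SNHG3. In bortezomib against G2, SNHG3 was at 0.155 with the code letter block, at 0.043 without the libraries low in protein-coding counts and at -0.66 to 0.11 leaving out each library. In MG132 with amanitin against G2, SNHG16 was at -0.35 with mitochondrial scaling, -0.068 with the offset, -0.085 without the libraries low in protein-coding counts and -0.039 to 0.19 leaving out each library. There SNHG3 was at 0.015 without the libraries low in protein-coding counts and at -0.71 to 0.059 leaving out each library, and ZFAS1 at -0.39 to 0.0042. In amanitin against MG132, SNHG16 was at 0.025 with total library size and at -0.25 to 0.0060 leaving out each library. In G2 against asynchronous cells, SNHG12 ranged from -0.10 to 0.52. The log2 ratio of SNHG16 to its snoRNA rows with MG132 against G2 ranged from -0.36 to 0.064.

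At these depths each host had at least 41354 counts in all, so the spread between libraries and not counting limits the comparisons of the host rows. Counts of the snoRNA rows were lower, with 1182 for SNORA9 and 684 for SNORD1B over the 20 libraries. In such rows, and in ratios that rest on them, counting noise adds to the spread. Of the snoRNA rows, SNORA17A with 4 counts could not be tested.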
